A study of Mus musculus with 20 samples.

Results

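The genes described here are 10 products of intestinal goblet cells: Muc2, Fcgbp, Clca1, Zg16, Tff3, Agr2, Galnt12, Spink4, Klk1 and Retnlb. They were picked by name from the 24795 genes of the deposited table, not by their values, and all 10 passed the filter on low values (at least 1 RPKM in at least 6 of 20 libraries). RPKM divides the reads of a gene by its length and by the reads of the library, so levels of different genes can be set side by side. The study sequenced RNA of mouse intestinal material in 3 groups. The control group holds 7 libraries of genotype Apc Min with a control treatment, and the DM-aKG group holds 6 libraries of genotype Apc Min with DM-aKG treatment. The third group holds 7 libraries of wild-type (WT) mice with no treatment. Apc Min is a truncating allele of the tumour suppressor gene Apc, which restrains Wnt signalling, and mice that carry it form adenomas of the intestine. Dimethyl alpha-ketoglutarate, or DM-aKG, is an ester that brings the metabolite alpha-ketoglutarate into cells. All 20 libraries share the label of a medium low in glutamine. No age, strain background, dose or treatment time was given in the labels used here. The titles call the material tissue and other fields call it intestinal organoids, so the source is named here only as the labels name it. Of 18 colon-enriched genes 5 passed the filter, as did 9 of 10 genes of the proximal small intestine and 9 of 10 of the ileum. Among the 10 products, Retnlb passed the filter only through Apc Min libraries.

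Goblet cells fill the lumen side of their cytoplasm with granules of mucus and release them onto the epithelium. The gel is built by Muc2, a mucin whose subunits are joined by disulfide bonds in the endoplasmic reticulum and then loaded with sugar chains in the Golgi. Fcgbp is bound to the mucin network, Clca1 is a secreted protease that cuts Muc2, Zg16 is a lectin that binds the walls of Gram-positive bacteria, and Tff3 is a trefoil peptide that protects and helps to repair the epithelium. Agr2 is a disulfide isomerase of the endoplasmic reticulum that Muc2 needs for its assembly, and Galnt12 is one of the transferases that attach the first sugar of an O-linked chain. Spink4 belongs to the Kazal-type serine protease inhibitors, Klk1 is a serine protease of the tissue kallikrein family, and Retnlb encodes a small antimicrobial hormone-like protein that type 2 cytokines induce. All 10 are protein-coding in GENCODE M21 (mm10). Muc2 lies at chr7:141690340-141754693, Fcgbp at chr7:28071236-28120862, Zg16 at chr7:127050156-127087328 and Klk1 at chr7:44225360-44229618. Clca1 lies at chr3:145003817-145032776, Tff3 at chr17:31125306-31129646 and Agr2 at chr12:35992907-36004087. Galnt12 lies at chr4:47091909-47123070, Spink4 at chr4:40920052-40931395 and Retnlb at chr16:48816856-48818892. In bulk RNA, fewer goblet cells and less RNA per goblet cell cannot be told apart.

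Upstream sequences from RefSeq (GRCm38.p6) matched 4 of the 10 genes, and all 4 are shown. Each line holds the 250 bases before the annotated start on the gene's own strand, 5′ to 3′, with matches to the searched motifs in capitals. Fcgbp lies at chr7:28070986-28071235, Klk1 at chr7:44225110-44225359, Muc2 at chr7:141690090-141690339 and Agr2 at chr12:35992675-35992924, all on the forward strand. The starts are those of RefSeq. For Agr2 that start lies inside the GENCODE gene, which begins at 35992907, so the end of its window overlaps that gene.
Muc2: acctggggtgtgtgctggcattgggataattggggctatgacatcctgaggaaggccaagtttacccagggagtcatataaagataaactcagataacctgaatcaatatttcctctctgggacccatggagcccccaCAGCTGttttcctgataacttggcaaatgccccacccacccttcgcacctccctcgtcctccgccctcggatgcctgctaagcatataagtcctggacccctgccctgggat
Fcgbp: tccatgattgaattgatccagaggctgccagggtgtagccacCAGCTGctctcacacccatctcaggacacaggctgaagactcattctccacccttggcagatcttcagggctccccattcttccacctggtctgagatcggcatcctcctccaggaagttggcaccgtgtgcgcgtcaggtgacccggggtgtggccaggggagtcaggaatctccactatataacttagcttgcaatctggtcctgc
Agr2: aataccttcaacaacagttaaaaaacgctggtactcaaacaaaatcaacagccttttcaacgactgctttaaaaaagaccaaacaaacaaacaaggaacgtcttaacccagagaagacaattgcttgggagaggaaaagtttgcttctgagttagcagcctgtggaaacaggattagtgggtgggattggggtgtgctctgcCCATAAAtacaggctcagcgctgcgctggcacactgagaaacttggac
Klk1: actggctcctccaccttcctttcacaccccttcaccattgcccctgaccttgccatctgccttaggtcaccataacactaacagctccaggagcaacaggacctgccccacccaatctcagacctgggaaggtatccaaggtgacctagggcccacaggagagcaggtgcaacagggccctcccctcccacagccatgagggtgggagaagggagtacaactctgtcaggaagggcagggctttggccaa

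The motifs searched on both strands were CAGCTG (an E-box of the kind Atoh1 binds), TGTTTAC (forkhead factors such as Foxa1), CCGGAT (an ETS core, for Spdef), CTTTGA (TCF/LEF), TTTATNG (Cdx factors) and ACGTG (a core used by factors of the unfolded protein response). CAGCTG stood in the windows of Muc2, at -112 to -107 from the start, and of Fcgbp, at -208 to -203. Of 32851 mouse promoter windows of this length, 13% held it. The window of Agr2 held TTTATNG on the reverse strand at -48 to -42, where the capitals show its reverse complement, and 9.81% of all windows held that motif. The window of Klk1 held none of the 6 motifs. The other 4 motifs were in none of the 4 windows, against 3.17% of all windows for TGTTTAC, 4.94% for CCGGAT, 13.8% for CTTTGA and 16.6% for ACGTG. GC content was 53.2% for Muc2, 56.4% for Fcgbp, 58.8% for Klk1 and 44.4% for Agr2, with a median of 52.4% over all windows. These are matches of letters in a short window and carry no measurement of binding.

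The libraries held an estimated 21.1 to 29.0 M reads and no pair held identical values. Whether libraries of a group came from separate animals or cultures is not in the labels. The p-values therefore reflect library-to-library spread, which may be technical. The ribosomal RNA precursor Rn45s ranged from 3836 to 6558 RPKM in replicates 1 to 4 and from 1078 to 3621 RPKM in replicates 5 to 7, so values within these sets are given for the treatment. The epithelial adhesion gene Epcam lay between 506 and 1090.4 RPKM. Smooth muscle was present in every library: Myh11, its myosin, was at 152 ± 24.8 RPKM in WT (SD, n = 7), 77.9 ± 34.5 in control (SD, n = 7) and 161 ± 35.7 in DM-aKG libraries (SD, n = 6). All 13 smooth muscle markers were lower in control than in WT and higher in DM-aKG than in control libraries. Their summed level ranged from 1184 to 2023 RPKM in WT, 461 to 1547 in control and 1063 to 1820 in DM-aKG libraries. Goblet products were therefore also fitted with the mean level of these markers as a covariate. The groups differ in that covariate, so such values rest largely on the spread within groups. Differences are of log2(RPKM + 1), which understates the change of low genes, and calls are at an adjusted p under 0.05 from limma over all 12433 genes tested. Of 9 proximal small intestine genes, 2 were higher and 3 lower in control than in WT. With DM-aKG none of them was higher and 3 were lower than in control. Of 9 ileum genes, none was higher and 1 lower in control than in WT. With DM-aKG 3 of these were higher than in control and none lower. Of all genes, 43.2% were higher and 15.7% lower in control, and 5.91% and 27.6% with DM-aKG. The part of gut region in the levels of goblet products was not tested.

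The goblet products were abundant. Summed over the 10 genes they took 2.08 ± 0.243% of the summed RPKM in WT (SD, n = 7), 1.19 ± 0.281% in control (SD, n = 7) and 1.34 ± 0.292% in DM-aKG libraries (SD, n = 6). Zg16 alone made up 48.6 ± 6.02% of that sum in WT, 49.0 ± 7.29% in control and 52.8 ± 2.93% in DM-aKG libraries. In each group Zg16 stood first and Tff3 second, with no library of Tff3 reaching the lowest Zg16 library of its group. Below them the order of means in WT was Clca1, Fcgbp, Spink4, Agr2, Muc2, Klk1, Galnt12 and Retnlb. From Tff3 down to Muc2 the range of every gene in WT overlapped with that of the next in this order, although Fcgbp exceeded Spink4 in each of the 7 WT libraries. Muc2, Klk1 and Galnt12 were each separated from the next below by a gap. In control libraries Clca1 stood behind Spink4, Agr2, Fcgbp and Muc2, and every neighbouring pair from Tff3 down to Galnt12 overlapped. In DM-aKG libraries Fcgbp and Clca1 came next after Tff3, and Agr2 stood below Muc2. Neighbours from Fcgbp down to Agr2 overlapped there, as did Klk1 and Galnt12. Libraries that were extreme for one product were often extreme for several. WT replicate 1 was lowest of its group or tied for it in 8 genes, control replicate 6 was highest in 6 and control replicate 3 lowest in 6. DM-aKG replicate 1 was highest in 7 and DM-aKG replicate 2 lowest in 5.

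**Figure D1:**
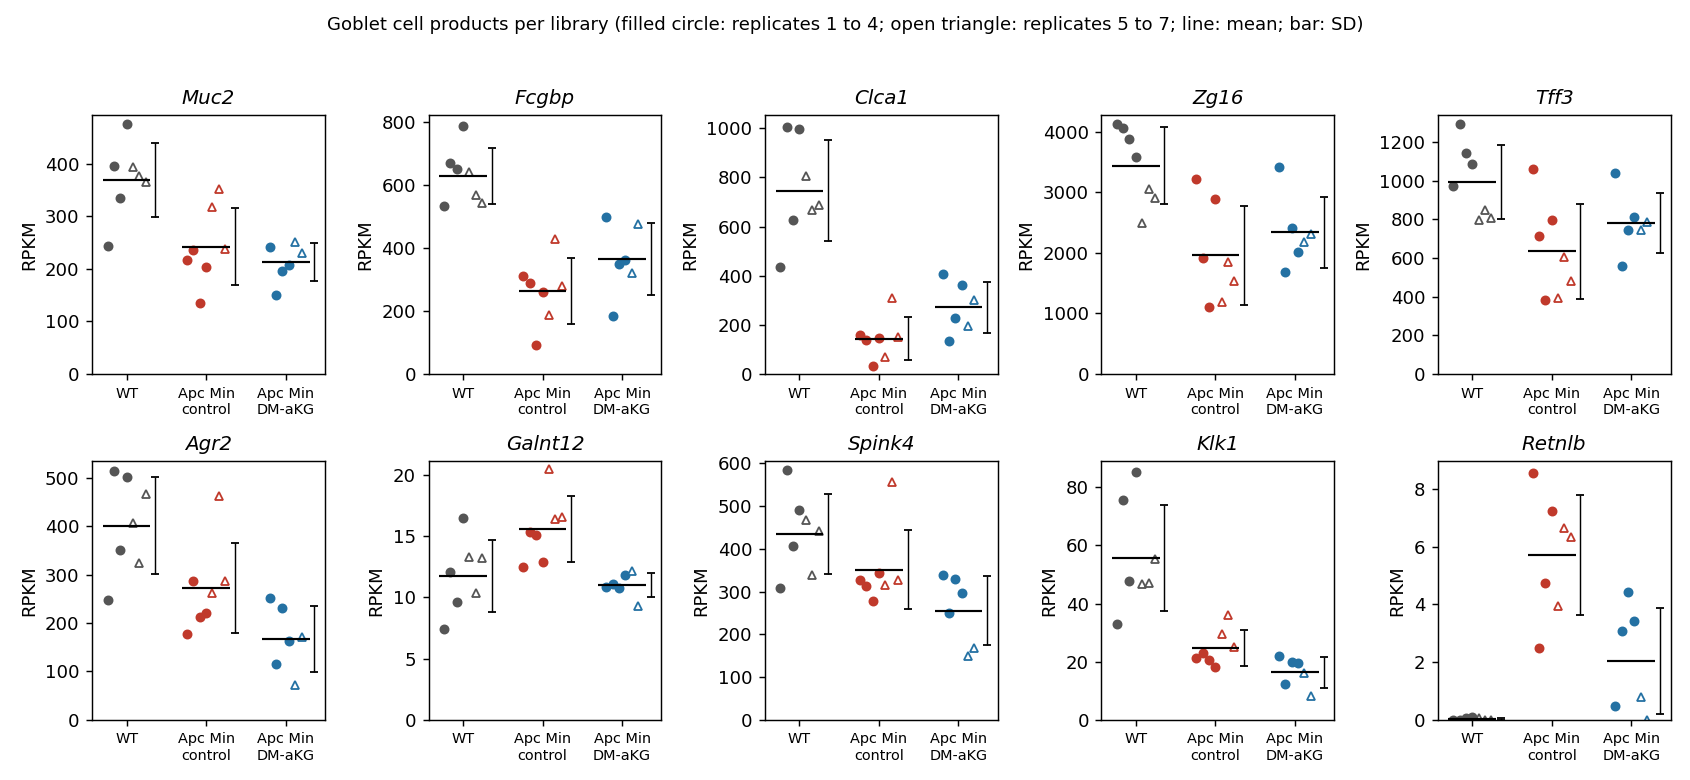
RPKM of each of the 10 goblet cell products (vertical axes, each from 0) in WT, control Apc Min and DM-aKG Apc Min libraries; points are libraries, the line is the mean and the bar the SD. All 7 control libraries of Clca1 and Fcgbp lie below all 7 WT libraries, Retnlb is near 0 in WT, and every DM-aKG library of Galnt12 lies below every control library.

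Control Apc Min libraries were compared with WT to ask how the mutant intestine differs in these products. The control libraries had a control treatment and the WT libraries none, so genotype and that treatment cannot be told apart here. Of the 10 genes, 6 were lower (Muc2, Tff3, Clca1, Fcgbp, Zg16 and Klk1), 2 were higher (Retnlb and Galnt12), and Spink4 and Agr2 were not called. Of all genes tested 58.8% were called, 43.2% higher and 15.7% lower. The median difference of the 10 products was -0.68, against 0.20 over all genes tested. Other epithelial genes fell too. Absorptive enterocyte markers had a median of -0.57, with 9 of 24 lower and 2 higher. Pan-epithelial markers had a median of -0.33, with 8 of 15 lower and 2 higher. Groups did not overlap for Clca1 and Fcgbp, lower in control, and for Retnlb, higher, against 5.73% of all genes not overlapping on the lower side and 20.4% on the higher. With median-of-ratios scaling, which moves the median of all genes to about 0, 8 products were lower and 1 higher, and with quantile normalization 4 and 1.

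Of the gel proteins, Clca1 had the largest difference. Its levels in WT replicates 1 to 7 were 436, 1006, 626, 996, 806, 666 and 688 RPKM, and in control replicates 1 to 7 they were 159, 139, 32.0, 148, 69.4, 309 and 151 RPKM. The highest control library thus stayed below the lowest WT library. The fitted difference was -2.58 (SE 0.36, adjusted p = 6.27e-06), and Clca1 kept its call in every alternative tried, at -1.62 (adjusted p = 0.0126) with the smooth muscle covariate. Fcgbp ranged from 534 to 789 RPKM in WT with a median of 641, and from 90.7 to 429.7 RPKM in control libraries with a median of 279. These groups did not overlap either, and the difference was -1.37 (SE 0.26, adjusted p = 0.000172), or -0.68 (adjusted p = 0.13) with the covariate.

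Muc2, the gel-forming mucin itself, fell less. It ranged from 243 to 476 RPKM in WT with a median of 376, and from 134 to 352 RPKM in control libraries with a median of 235. The ranges overlapped, and the difference was -0.64 (SE 0.18, adjusted p = 0.00514). Zg16 ranged from 2489.5 to 4132 RPKM in WT and from 1104 to 3223 RPKM in control libraries, a difference of -0.90 (SE 0.22, adjusted p = 0.00179). Tff3 ranged from 797 to 1296 RPKM in WT and from 385 to 1060.0 RPKM in control libraries, a difference of -0.71 (SE 0.20, adjusted p = 0.00517). For both the ranges overlapped through control replicates 1 and 4. With the smooth muscle covariate none of the 3 genes was called, at -0.48 for Muc2 (adjusted p = 0.19), -0.38 for Zg16 (0.349) and -0.20 for Tff3 (0.598). With quantile normalization the calls of Zg16 and Tff3 were also lost, within replicates 5 to 7 Muc2 was at -0.34 (adjusted p = 0.137), and within replicates 1 to 4 Tff3 was at -0.69 (0.0542).

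Among the genes that process the mucin, Agr2 ranged from 247 to 514 RPKM in WT and from 178 to 462 RPKM in control libraries. Its difference of -0.58 (SE 0.25) had an adjusted p of 0.0539 and so was not called. It passed without WT replicate 1, control replicate 6, DM-aKG replicate 1 or DM-aKG replicate 5, each left out alone, at -0.71 to -0.58 with adjusted p from 0.0171 to 0.0461. It also passed with median-of-ratios scaling (-0.82, adjusted p = 0.00639), with only the 2 groups compared (-0.58, 0.0253) and in replicates 1 to 4 (-0.80, 0.033). Galnt12 went the other way, from 11.8 ± 2.94 RPKM in WT (SD, n = 7) to 15.6 ± 2.68 in control libraries (SD, n = 7), a difference of 0.40 (SE 0.13, adjusted p = 0.0139). That call was lost with quantile normalization, median-of-ratios scaling, replicates 1 to 4 alone and the smooth muscle covariate, at 0.17 to 0.32 with adjusted p from 0.128 to 0.293.

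Klk1, the protease, was lower, and Spink4, the inhibitor, was not called. Klk1 ranged from 32.8 to 85.3 RPKM in WT and from 18.0 to 36.1 RPKM in control libraries, so that only control replicate 6 reached into the WT range. The difference was -1.11 (SE 0.21, adjusted p = 0.000194), or -0.70 (adjusted p = 0.082) with the covariate. Spink4 ranged from 308 to 585 RPKM in WT and from 277 to 555 RPKM in control libraries. The ranges overlapped widely, and the difference was -0.31 (SE 0.20, adjusted p = 0.184), which turned to 0.09 with the smooth muscle covariate. Spink4 passed with median-of-ratios scaling (-0.55, adjusted p = 0.0161) and in replicates 1 to 4 (-0.47, 0.0475). Klk1 has close relatives on chromosome 7, the 13 Klk1b genes, whose summed level was between 0.0417 and 1.32 RPKM in every library. How reads shared between such copies were counted is not given in the sources used here.

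Retnlb was nearly absent in WT and present in every control library. WT replicates 1, 2, 6 and 7 were listed at 0, and replicates 3, 4 and 5 at 0.0549, 0.108 and 0.0560 RPKM, which corresponds to an estimated 4 reads in all. Control replicates 1 to 7 were at 8.55, 2.50, 4.75, 7.24, 3.95, 6.64 and 6.32 RPKM, an estimated 46 to 132 reads each. The groups were far apart, with a fitted difference of 2.63 (SE 0.30, adjusted p = 5.42e-07) that depends on the pseudocount of 1 because WT lies at the limit of detection. No WT library reached 1 RPKM, so Retnlb passed the filter only through Apc Min libraries. Its p-value against WT is therefore not independent of the filter. The call held in every alternative tried. Of 16 genes of type 2 immunity 8 passed the filter. Of these 3 were higher in control libraries (Arg1, Il4ra and Chil3) and 2 lower (Il13ra1 and Stat6). Arg1 and Chil3 lay below 1 RPKM in every WT library, at no more than 0.521 and 0.0734 RPKM. Of all genes tested 43.2% were higher and 15.7% lower. The cytokine genes Il13 and Il4, which can induce Retnlb, did not pass the filter, with means of 0.00882 and 0.00589 RPKM in control libraries. The part of type 2 cytokines in the level of Retnlb was not tested.

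DM-aKG was compared with control in Apc Min to ask what the treatment changes in the mutant. Of the 10 products 1 was higher with DM-aKG (Clca1), 4 were lower (Agr2, Retnlb, Klk1 and Galnt12) and 5 were not called (Muc2, Tff3, Fcgbp, Spink4 and Zg16). Of all genes tested 33.5% were called, 5.91% higher and 27.6% lower, and the 5 calls among 10 products are not far above that share. Their median difference was -0.30, against -0.14 over all genes tested. Galnt12 alone had groups that did not overlap, against 8.19% of all genes not overlapping on the lower side and 0.732% on the higher. With median-of-ratios scaling 1 product was higher and 1 lower, and with quantile normalization 1 and 3.

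Clca1 rose from 144 ± 87.4 RPKM in control (SD, n = 7) to 272 ± 104 with DM-aKG (SD, n = 6), against 746 ± 206 in WT (SD, n = 7). DM-aKG replicates 1 to 6 were at 409, 133, 229, 362, 197 and 300.3 RPKM. Replicates 2, 3, 5 and 6 of the treated group lay within the control range, and control replicates 1, 2, 4, 6 and 7 lay within the treated range. The difference was 1.08 (SE 0.38, adjusted p = 0.0326). It missed the threshold without control replicate 3 (0.77, adjusted p = 0.0599), control replicate 5 (0.95, 0.0663), DM-aKG replicate 1 (0.94, 0.0778), DM-aKG replicate 4 (0.98, 0.0711) or DM-aKG replicate 6 (1.03, 0.0618). With only the 2 groups compared the adjusted p was 0.0725, and with the smooth muscle covariate the difference was 0.25 (adjusted p = 0.725). Replicates 1 to 4 alone gave 1.34 and replicates 5 to 7 alone gave 0.71, and neither passed.

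The other gel proteins were not called. Fcgbp was at 264 ± 105 RPKM in control (SD, n = 7) and 365 ± 115 with DM-aKG (SD, n = 6), a difference of 0.53 (SE 0.27, adjusted p = 0.14). Without DM-aKG replicate 2, its lowest treated library, Fcgbp passed at 0.71 (adjusted p = 0.0385), as it did with array weights (0.53, 0.039). Without control replicate 3, its lowest control library, the difference was 0.29. Zg16 differed by 0.32 (SE 0.23, adjusted p = 0.289), which became -0.15 with quantile normalization. Tff3 differed by 0.36 (SE 0.21, adjusted p = 0.19) and passed without control replicate 1 (0.50, adjusted p = 0.0449) and in replicates 5 to 7 (0.65, 0.0491). With the smooth muscle covariate Fcgbp, Zg16 and Tff3 turned to -0.06, -0.12 and -0.07. Muc2 was at 242 ± 72.6 RPKM in control (SD, n = 7) and 213 ± 37.0 with DM-aKG (SD, n = 6), a difference of -0.15 (SE 0.19, adjusted p = 0.582) that became 0.02 with median-of-ratios scaling. The treated Muc2 libraries, from 150.5 to 251 RPKM, lay inside the control range of 134 to 352 RPKM.

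Agr2 and Galnt12, which act inside the secretory pathway, were lower with DM-aKG. Agr2 in control replicates 1 to 7 was at 178, 287, 212, 220.4, 262, 462 and 287 RPKM, and in DM-aKG replicates 1 to 6 at 251, 115, 232, 163, 71.5 and 171 RPKM. Replicates 2, 4, 5 and 6 of the treated group lay below the lowest control library, and replicates 1 and 3 lay within the control range. The difference was -0.76 (SE 0.26, adjusted p = 0.0306). It missed the threshold without control replicate 2 (-0.73, adjusted p = 0.0505), control replicate 6 (-0.62, 0.068), control replicate 7 (-0.74, 0.0517), DM-aKG replicate 2 (-0.67, 0.0611) or DM-aKG replicate 5 (-0.54, 0.0908), and with median-of-ratios scaling (-0.59, 0.0844). Agr2 further missed it in a fit of these 2 groups alone (-0.76, 0.0588), with array weights (-0.56, 0.0554) and in replicates 1 to 4 (-0.28, 0.538). Galnt12 in control replicates 1 to 7 was at 12.4, 15.3, 15.1, 12.9, 20.5, 16.4 and 16.5 RPKM, and in DM-aKG replicates 1 to 6 at 10.8, 11.1, 10.8, 11.8, 12.1 and 9.33 RPKM. All 6 treated libraries lay below all 7 control libraries and inside the WT range of 7.45 to 16.4 RPKM. The difference was -0.46 (SE 0.14, adjusted p = 0.0137). With quantile normalization it was -0.31 (adjusted p = 0.0633) and with median-of-ratios scaling -0.30 (0.0662). The call was also lost with the smooth muscle covariate (-0.36, adjusted p = 0.172) and in replicates 1 to 4 (-0.30, 0.285).

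Klk1, the protease, was at 24.8 ± 6.16 RPKM in control (SD, n = 7) and 16.3 ± 5.22 with DM-aKG (SD, n = 6), a difference of -0.61 (SE 0.22, adjusted p = 0.0417). The groups overlapped between 18.0 and 21.8 RPKM. The call was lost without control replicate 2, 5, 6 or 7 or DM-aKG replicate 2, 5 or 6, each left out alone, at -0.62 to -0.44 with adjusted p from 0.0537 to 0.119. It was also lost with quantile normalization (-0.47, adjusted p = 0.122), with median-of-ratios scaling (-0.44, 0.124), with array weights (-0.38, 0.128), with no filter on low values (-0.61, 0.0587) and in replicates 1 to 4 (-0.19, 0.678). Spink4, the protease inhibitor, was at 351 ± 92.3 RPKM in control (SD, n = 7) and 255 ± 81.5 with DM-aKG (SD, n = 6), a difference of -0.49 (SE 0.20, adjusted p = 0.0667). It passed without DM-aKG replicate 1 (-0.59, adjusted p = 0.0402) or DM-aKG replicate 3 (-0.58, 0.043). It also passed with quantile normalization (-0.57, adjusted p = 0.032), in replicates 5 to 7 (-1.28, 0.0145) and with the smooth muscle covariate (-0.84, 0.0251).

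Retnlb had the smallest adjusted p of the 10 products under treatment. Its control libraries alone met the filter, each at 2.50 RPKM or more. DM-aKG replicates 1 to 6 were at 0.480, 3.08, 4.43, 3.44, 0.795 and 0 RPKM, an estimated 9, 56, 82, 63, 15 and 0 reads. Replicates 1, 5 and 6 lay below every control library, and replicates 2, 3 and 4 lay within the control range of 2.50 to 8.55 RPKM. The difference was -1.34 (SE 0.32, adjusted p = 0.00288), and it held in each fit that left out a single library, at -1.56 to -1.07. It did not pass within replicates 1 to 4 (-0.86, adjusted p = 0.142). Of the 8 type 2 immunity genes 3 (Il33, Il4ra and Arg1) were lower with DM-aKG and none higher. Of all genes tested 27.6% were lower and 5.91% higher. With quantile normalization and with median-of-ratios scaling 1 of the 8 was lower, where 1849 and 1843 of all 12433 genes were.

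**Figure D2:**
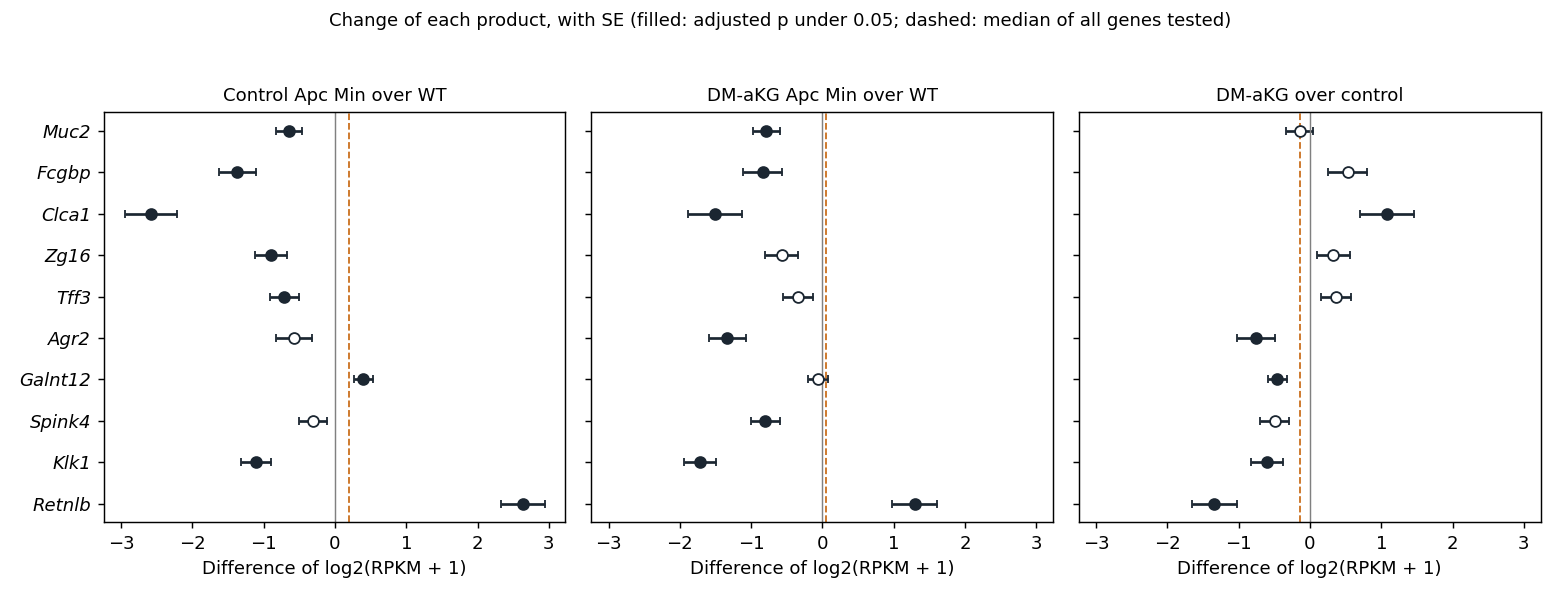
Difference of log2(RPKM + 1) of each product (horizontal axes) in the 3 comparisons, with SE; filled points have an adjusted p under 0.05 and the dashed line is the median of all genes tested. In the treatment comparison Clca1, at 1.08, is the only filled point to the right of 0, and Agr2, Galnt12, Klk1 and Retnlb are filled to the left.

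For 4 products the treatment difference was larger in one set of replicates than in the other, without passing the adjusted test of that difference. Within replicates 1 to 4 (4 libraries against 4) DM-aKG minus control was -0.06 for Spink4, -0.28 for Agr2, -0.19 for Klk1 and -0.86 for Retnlb. Within replicates 5 to 7 (2 against 3) these differences were -1.28, -1.55, -1.29 and -2.28. A test of the difference between sets gave unadjusted p = 0.00141 for Spink4, 0.0216 for Agr2, 0.0176 for Klk1 and 0.0224 for Retnlb in limma, but adjusted over all genes none passed, with p from 0.261 to 0.39. Of all genes tested 0.209% passed. Clca1, Fcgbp, Tff3 and Zg16 were above 0 in both sets. What sets the replicates apart besides Rn45s is not in the labels, and its part in these values was not tested.

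**Figure D3:**
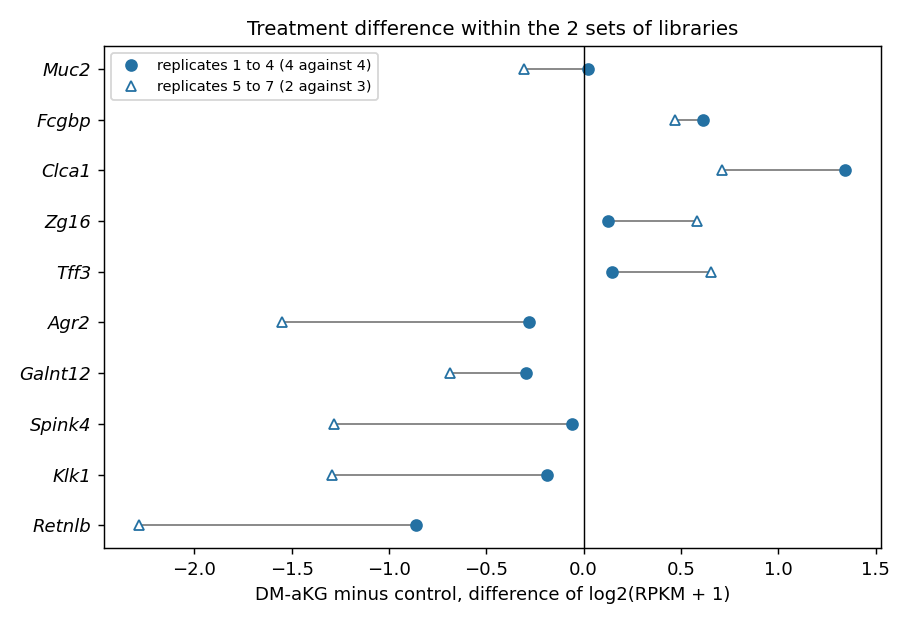
DM-aKG minus control, as the difference of log2(RPKM + 1), within replicates 1 to 4 (filled circles, 4 libraries against 4) and within replicates 5 to 7 (open triangles, 2 against 3). Spink4 lies at -0.06 and -1.28 and Agr2 at -0.28 and -1.55, while Clca1, Fcgbp, Zg16 and Tff3 lie above 0 in both sets.

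Setting each product against Muc2 of the same library asks whether it changed by another amount than the main mucin. The Clca1 to Muc2 ratio of RPKM lay between 1.77 and 2.54 in WT (median 1.88), between 0.219 and 0.879 in control (median 0.637) and between 0.782 and 1.74 in DM-aKG libraries (median 1.24). DM-aKG replicate 5 lay inside the control range and DM-aKG replicate 2 just above it, and no Apc Min library reached the lowest WT ratio. Relative to Muc2, Clca1 was 1.94 lower on the log2 scale in control than in WT, a difference of -1.94 (SE 0.29, adjusted p = 5.78e-07), and 1.23 higher with DM-aKG than in control (SE 0.30, adjusted p = 0.00784). It was the only one of 9 products called relative to Muc2 under treatment, where 5.53% of all genes were called. In the same limma fit 4 of the 9 had an unadjusted p under 0.05, as did 2040 of all 12432 genes. Without DM-aKG replicate 2 or 3 the count was 2. The call of Clca1 held in every fit that left out a single library and was lost with the smooth muscle covariate (0.54, adjusted p = 0.709). Fcgbp stood at 1.73 ± 0.254 times Muc2 in WT (SD, n = 7), 1.09 ± 0.321 in control (SD, n = 7) and 1.69 ± 0.370 in DM-aKG libraries (SD, n = 6). Relative to Muc2 it was lower in control than in WT (-0.73, SE 0.26, adjusted p = 0.0112), a call that was lost with the smooth muscle covariate (-0.20, adjusted p = 0.649), and its difference under treatment did not pass (0.67, SE 0.27, adjusted p = 0.164). Agr2 stood at 1.08 ± 0.153 times Muc2 in WT (SD, n = 7), 1.15 ± 0.271 in control (SD, n = 7) and 0.799 ± 0.308 in DM-aKG libraries (SD, n = 6). Its relative difference under treatment was -0.61 (SE 0.28, adjusted p = 0.251). Between control and WT 4 products were called relative to Muc2, these being Clca1, Fcgbp, Galnt12 (1.04) and Retnlb (3.27). Muc2 itself was lower there and 78.3% of all genes were called, so the count of 4 in 9 lies below the background. Between DM-aKG and WT 4 were called as well, Clca1 (-0.72), Klk1 (-0.93), Galnt12 (0.72) and Retnlb (2.08), against 78.6% of all genes. The Clca1 call was lost there without WT replicate 2, DM-aKG replicate 2 or DM-aKG replicate 5, at -0.66 to -0.59 with adjusted p from 0.0608 to 0.0797. It was also lost with quantile normalization (-0.62, 0.0701), in replicates 1 to 4 (-0.64, 0.0708) and with the covariate (-0.60, 0.0559), and that of Galnt12 was lost in replicates 5 to 7 (0.47, 0.165).

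**Figure D4:**
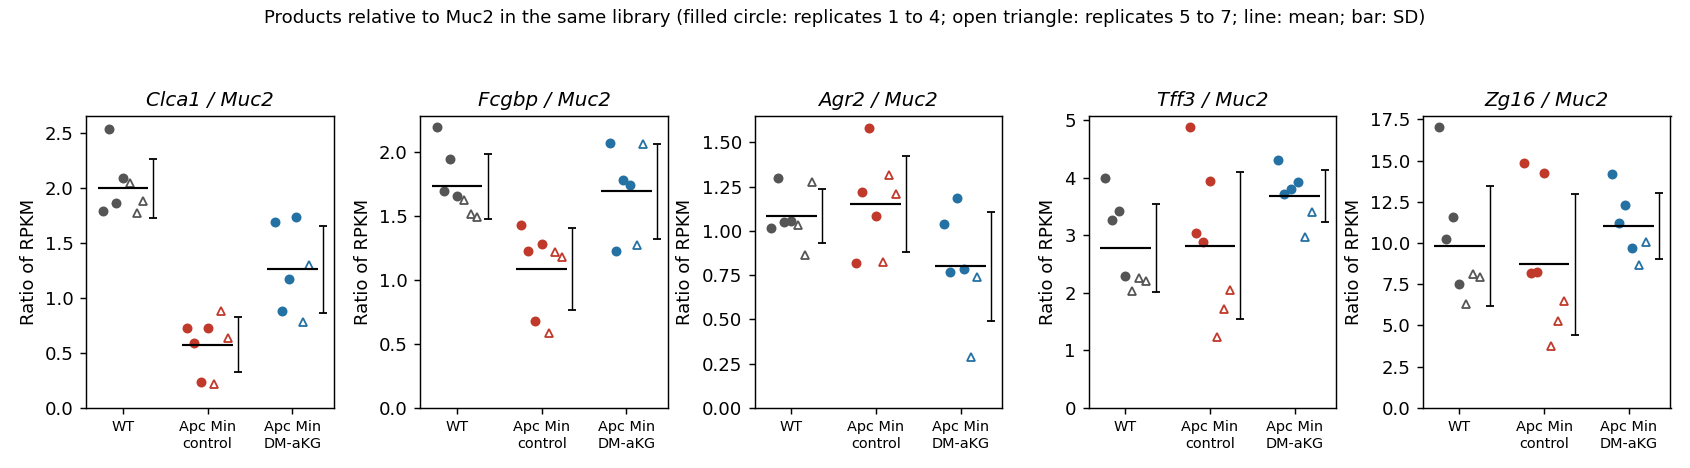
Ratio of the RPKM of Clca1, Fcgbp, Agr2, Tff3 and Zg16 to that of Muc2 in the same library (vertical axes, each from 0), with the mean as a line and the SD as a bar. The Clca1 ratio is at 2.0 ± 0.266 in WT, 0.575 ± 0.253 in control and 1.26 ± 0.399 in DM-aKG libraries, and the Zg16 and Tff3 ratios overlap between the groups.

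DM-aKG Apc Min libraries were also set against WT, to ask how far treated mutants stood from normal intestine. Genotype and treatment both differ in this comparison and cannot be told apart. Of the 10 products 6 were lower (Muc2, Clca1, Fcgbp, Spink4, Agr2 and Klk1), 1 was higher (Retnlb), and Tff3, Zg16 and Galnt12 were not called. Of all genes tested 39.2% were called, 21.9% higher and 17.3% lower. The median difference of the products was -0.79, against 0.05 over all genes tested. Pan-epithelial markers had a median of -0.32, with 6 of 15 lower and none higher. Absorptive enterocyte markers had a median of -0.05, with 3 of 24 lower and 4 higher. Groups did not overlap for Clca1, Fcgbp and Klk1, all lower, against 7.79% of all genes on that side and 9.36% on the higher side. This comparison and the preceding ones share libraries, so their values are given side by side and not as separate evidence.

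Klk1 had the smallest adjusted p of the products, at 8.22 to 21.8 RPKM in DM-aKG libraries and 32.8 to 85.3 RPKM in WT. The difference was -1.71 (SE 0.22, adjusted p = 1.5e-05). Agr2 ranged from 71.5 to 251 RPKM in treated and from 247 to 514 RPKM in WT libraries, so that the groups met only at DM-aKG replicate 1 and WT replicate 1. Its difference was -1.33 (SE 0.26, adjusted p = 0.000682). Spink4 differed by -0.80 (SE 0.20, adjusted p = 0.00464) and Muc2 by -0.79 (SE 0.19, adjusted p = 0.00319). Muc2 overlapped only through WT replicate 1, at 243 RPKM, and DM-aKG replicate 5, at 251 RPKM. Klk1, Agr2 and Spink4 kept their calls in every alternative tried. Clca1 differed by -1.50 (SE 0.38, adjusted p = 0.00433), and its highest treated library, at 409 RPKM, lay below the lowest WT library, at 436 RPKM. Fcgbp differed by -0.84 (SE 0.27, adjusted p = 0.0195), and without DM-aKG replicate 2 it missed the threshold (-0.66, adjusted p = 0.0583). The Fcgbp call was also lost with quantile normalization (-0.70, adjusted p = 0.0503), in replicates 1 to 4 (-0.99, 0.0623) and in replicates 5 to 7 (-0.58, 0.292).

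For the products that were not called against WT, Tff3 was at 781 ± 155 RPKM with DM-aKG (SD, n = 6) and 993 ± 190.3 in WT (SD, n = 7), a difference of -0.35 (SE 0.21, adjusted p = 0.193). Zg16 was at 2339 ± 590.1 RPKM with DM-aKG (SD, n = 6) and 3445 ± 633 in WT (SD, n = 7), a difference of -0.57 (SE 0.23, adjusted p = 0.0541). Zg16 passed without WT replicate 5, control replicate 1, 3, 4 or 5 or DM-aKG replicate 1, each left out alone, at -0.69 to -0.57 with adjusted p from 0.0276 to 0.0435. It also passed with median-of-ratios scaling (-0.65, adjusted p = 0.045), with only the 2 groups compared (-0.57, 0.0155), without limma's trend and robust settings (-0.57, 0.0479) and with the replicate set as a factor (-0.61, 0.0248). Galnt12 differed by -0.06 (SE 0.14, adjusted p = 0.742), a value that turned to 0.02 without WT replicate 4. Retnlb remained above WT at 2.04 ± 1.84 RPKM (SD, n = 6), with a fitted difference of 1.29 (SE 0.32, adjusted p = 0.00361), though DM-aKG replicate 6 was listed at 0. Since Retnlb passed the filter only through Apc Min libraries, that p-value is not independent of the filter. Within replicates 5 to 7 Retnlb was at 0.40 over WT (adjusted p = 0.362), and Muc2 (-0.65, 0.0824) and Clca1 (-1.56, 0.118) also missed the threshold there.

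Transcription factors of the goblet lineage were measured for 10 genes. Of these, 6 were lower with DM-aKG than in control and none higher (Spdef, Foxa1, Foxa2, Foxa3, Creb3l4 and Hes1), with a median of -0.44 against -0.14 over all genes tested, of which 27.6% were lower and 5.91% higher. Foxa1, a forkhead factor of secretory cells, was at 21.9 ± 2.77 RPKM in control (SD, n = 7), 7.37 ± 2.85 with DM-aKG (SD, n = 6) and 6.82 ± 1.75 in WT (SD, n = 7). Foxa3, another forkhead factor, fell from 8.93 ± 2.39 to 3.85 ± 0.550 RPKM (limma adjusted p = 8.02e-06). Hes1, a Notch target that opposes the secretory fate, fell from 21.4 ± 4.15 to 10.9 ± 2.18 RPKM (limma adjusted p = 2.49e-05). Spdef, needed for goblet cell maturation, was at 5.81 ± 1.63 RPKM in control and 3.78 ± 0.554 with DM-aKG (limma adjusted p = 0.00777). Atoh1, which commits cells to the secretory lineage, was at 4.34 ± 1.40 and 5.10 ± 1.52 RPKM and was not called (limma adjusted p = 0.519). In control against WT 5 of the 10 were higher and 3 lower, against 43.2% and 15.7% of all genes. Foxa1, Foxa2, Foxa3, Creb3l4 and Hes1 were the higher ones, and Atoh1, Gfi1 and Klf4 the lower ones. With quantile normalization 5 were lower under treatment and none higher, and with median-of-ratios scaling 6 and none.

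Of 18 genes for folding and export of mucin, 10 were lower with DM-aKG than in control and none higher, with a median of -0.47 against -0.14 over all genes tested, of which 27.6% were lower. The number lower was 8 with quantile normalization, where 1849 of all 12433 genes were lower, and 6 with median-of-ratios scaling, where 1843 were. Pdia3, a disulfide isomerase of glycoprotein folding, fell from 181 ± 17.7 to 114 ± 15.5 RPKM (limma adjusted p = 2.42e-05). Pdia6, also a disulfide isomerase, fell from 44.2 ± 7.92 to 26.2 ± 6.53 RPKM, and Dnajc10, a reductase of the endoplasmic reticulum, from 17.0 ± 2.98 to 10.4 ± 1.81 RPKM. Against WT 11 of the 18 were lower with DM-aKG and none higher, where 17.3% of all genes were lower. Among them were Creld2 (27.2 ± 3.70 in WT and 9.91 ± 1.61 with DM-aKG) and Sdf2l1 (20.5 ± 3.02 and 6.62 ± 2.22), both induced when unfolded protein builds up. In control against WT 3 were higher and 3 lower, against 43.2% and 15.7% of all genes. With median-of-ratios scaling none was higher and 8 were lower, where 3303 and 3396 of all 12433 genes were. Plasma cells and fibroblasts also fold much secreted protein, and their markers differed between the groups. Of 7 plasma cell markers 4 were lower with DM-aKG than in WT and none higher, and their summed level ranged from 241 to 761 RPKM in WT, 134 to 192 in control and 121 to 264 in DM-aKG libraries. Of 14 fibroblast markers 8 were lower and 1 higher with DM-aKG than in control, with summed levels of 192 to 282 RPKM in WT, 399.7 to 534 in control and 204 to 347 in DM-aKG libraries. Of 13 leukocyte markers 9 were lower and 2 higher with DM-aKG than in WT, with summed levels of 84.0 to 121 RPKM in WT, 38.1 to 78.4 in control and 23.9 to 76.9 in DM-aKG libraries. The part of these cells in the folding genes was not tested.

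Of 32 genes of mucin O-glycosylation, not all of them enzymes, 29 passed the filter. With DM-aKG 1 was higher than in control, the sulfate transporter Slc26a2. With DM-aKG 8 were lower, a share near the 27.6% of all genes, and 1 of them, Slc35a1, is also a transporter. Their median was -0.02 against -0.14 over all genes tested. With quantile normalization and with median-of-ratios scaling 3 were higher and 4 lower. Fut2, the fucosyltransferase that makes the secreted H antigen, fell from 12.6 ± 4.46 to 1.46 ± 1.49 RPKM (limma adjusted p = 6.93e-07), near its WT level of 1.60 ± 0.797. Galnt3, a relative of Galnt12, fell from 23.3 ± 4.77 to 10.7 ± 3.88 RPKM (limma adjusted p = 0.000119), against 9.14 ± 2.13 in WT. St6galnac6, a sialyltransferase, fell from 11 ± 3.41 to 4.34 ± 1.64 RPKM (limma adjusted p = 0.000156). In control against WT 7 of the 29 were higher and 8 lower, where 43.2% and 15.7% of all genes were, with Fut2, Galnt3 and St6galnac6 among the higher ones.

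Of 35 other goblet cell genes 33 passed the filter, and they split in both directions. With DM-aKG 8 were higher than in control and 7 lower, with a median of 0.11 against -0.14 over all genes tested, of which 5.91% were higher and 27.6% lower. Those higher included Nlrp6, Scin, Capn9 and Aqp3, and also Ang4 and Itln1, which Paneth cells express too. Of 17 Paneth cell markers 14 were higher and 2, Mmp7 and Habp2, lower with DM-aKG than in control. Their summed level ranged from 9496 to 37447 RPKM with DM-aKG, 1163 to 19573 in control and 3552 to 34155 in WT libraries. In control against WT 13 of the 17 markers were lower and 2 higher. The goblet cell genes lower with DM-aKG included Fxyd3, a regulator of the sodium pump, which fell from 149 ± 35.0 to 22.3 ± 15.4 RPKM (limma adjusted p = 1.35e-07). They also included S100a6, a calcium-binding protein, which fell from 753 ± 293 to 162 ± 101 RPKM. Neither is confined to goblet cells. In control against WT 9 of the 33 were higher and 14 lower, against 43.2% and 15.7% of all genes, Nlrp6 among the lower ones at 41.6 ± 1.95 RPKM in WT and 14.8 ± 3.72 in control libraries. Of 15 pan-epithelial markers 6 were lower and 3 higher with DM-aKG than in control (median -0.13), and with median-of-ratios scaling 2 were lower and 3 higher (median 0.04). Their summed level ranged from 7583 to 10198 RPKM in WT, 5950 to 8328 in control and 5174 to 6549 in DM-aKG libraries, and the part of this in the levels of the goblet products was not tested.

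The genes whose levels ran most like those of 3 products over the 20 libraries were found by Pearson correlation of log2(RPKM + 1), a description that shares libraries, depth and group differences. For Muc2 they were Bcas1 (r = 0.89), Efr3a (0.87), Ccdc93 (0.87), Atp7a (0.86) and Sgpp2 (0.86), and after the group means were taken out Bcas1 remained at 0.84. For Clca1 they were Rab27a (0.96), Iqgap2 (0.96), Hps5 (0.95), Tnfsf13 (0.95) and Tnfrsf14 (0.94), and after the group means Rab27a remained at 0.93. Rab27a is a small GTPase of granule release, at 7.78 ± 0.776 RPKM in WT, 4.44 ± 1.44 in control and 5.33 ± 0.983 in DM-aKG libraries. For Retnlb they were Wfdc18 (0.93), Wif1 (0.93), Aldoc (0.93), Sf3b2 (0.93) and Cdkn1c (0.93), and after the group means these values were 0.57 to 0.72. Wfdc18 was at 0.0754 ± 0.115 RPKM in WT, 192 ± 76.5 in control and 11.2 ± 15.7 in DM-aKG libraries.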

How the data were processed

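RNA was measured in 20 mouse libraries, grouped by their labels into 7 control Apc Min, 6 DM-aKG Apc Min and 7 WT libraries. The deposited table holds RPKM values that the authors computed, 24795 genes by 20 libraries. No label names the unit: it was read from fractional values whose smallest steps scale with gene length. The submitters' processing notes name CASAVA 1.8, HISAT2 2.0.4, Partek and the mm10 genome. The role of each tool, the annotation and strandedness were not given in the sources used here. Since each library is scaled to its own total, strong changes in very abundant genes shift the rest.

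Depth was estimated from the steps of low values, of which 48.3 to 55.8% per library lay no more than 0.1 read from whole. Counts could not be recovered from that, and count models were not fitted. The estimate ran from 21.1 to 29.0 M reads, and read numbers carry counting error only. The 12433 genes that reached 1 RPKM in 6 or more libraries were fitted as log2(RPKM + 1) over 3 groups with limma 3.58.1 in R 4.3.3, with trend and robust settings (statmod 1.5.0). P-values are 2-sided and adjusted by Benjamini-Hochberg over all genes, with calls under 0.05. The same fit was made on values minus Muc2 of the same library and with an interaction of group and replicate set. Named genes are the 10 products, at most 4 members of each other list by smallest adjusted p, the 5 genes most correlated with Muc2, Clca1 and Retnlb, and Rn45s, Epcam and Myh11. Spdef, Atoh1, Il13, Il4, Scin, Capn9, Aqp3, Ang4, Itln1 and the members named only in a list of calls were added after their values were seen. The members and lists were chosen with earlier results of these data known. On simulated data for DM-aKG against control the fit recovered 47.8, 83.6 and 100% of planted log2 changes of 0.5, 1 and 2, with 9 false calls in 163 over 12433 genes. Changes were planted in 67, 67 and 66 genes with a mean log2 level of at least 2. Noise was independent between genes and no other gene differed, unlike in these data, so the rates may not carry over. Alternatives changed the pseudocount, filter, scaling, weights, libraries and covariates. Levels, sequences and figures were handled in Python 3.11.15 (pandas 2.3.3, numpy 2.4.6, matplotlib 3.10.9). Sequences came from the RefSeq promoter table of GRCm38.p6, and 24228 symbols matched GENCODE M21.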

Additional observations from a re-analysis of the deposited data

Results flagged for a closer look

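Control replicate 6 stood apart from the other control libraries in 2 products. Spink4 was at 555.5 RPKM there, while the other 6 control libraries lay between 277 and 345 RPKM. Agr2 was at 462.3 RPKM there, while the other 6 lay between 178 and 287 RPKM. Each gap to the nearest library exceeded the 95% critical value of Dixon's test for its group (0.568 for 7 libraries). Such a test was made for 30 sets of a product and a group, and chance flags about 1 in 20 sets. The same library was highest of its group for Muc2, Clca1, Fcgbp and Klk1 and held the highest Myh11 level of the control group, 139.9 RPKM. Without it, Agr2 under treatment was at -0.62 (limma adjusted p = 0.068).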

How the results depend on the processing

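Each of the results was recomputed under 32 alternatives. Calls of single products lost or gained under the other settings stand beside them above. DM-aKG against control called 4167 genes, 2225 in replicates 1 to 4 and 2523 with the smooth muscle covariate (3441 to 4574 with 1 library left out). Products higher, 1 as reported, were 0 with only the 2 groups compared, in replicates 1 to 4 and with the smooth muscle covariate, and 2 with array weights (0 to 2 with 1 library left out). Products lower, 4 as reported, were 1 with median-of-ratios scaling, 2 with array weights, 2 with the replicate number as a block and 0 in replicates 1 to 4 (2 to 5 with 1 library left out). Relative to Muc2, 1 product was called, and 3 with array weights, 2 with the replicate set as a factor, 5 in replicates 5 to 7 and 0 with the covariate (1 to 2 with 1 library left out). Control against WT called 7316 genes, 3563 with the covariate, where 1 product was higher and 1 lower in place of 2 and 6. Quantile normalization, median-of-ratios scaling and replicates 1 to 4 also gave 1 higher. Relative to Muc2, 4 were called and 7 with array weights, in this comparison and in DM-aKG against WT. DM-aKG against WT called 4873 genes, and 547 in replicates 5 to 7, with 0 products higher and 3 lower. Signs turned for Muc2 under treatment (0.023 with median-of-ratios scaling, 0.022 in replicates 1 to 4), for Tff3, Fcgbp and Zg16 under treatment with the covariate (-0.074, -0.063 and -0.12), for Zg16 with quantile normalization (-0.15), for Spink4 in control against WT with the covariate (0.091) and for Galnt12 in DM-aKG against WT (0.018 in replicates 1 to 4, -0.16 to 0.018 with 1 library left out, above 0 without WT replicate 4). The cause was not tested. The share of calls that were higher was 17.6, 73.4 and 55.9% for treatment, control against WT and DM-aKG against WT, 48.6, 49.2 and 48.6% with quantile normalization and 42.6, 49.3 and 44.9% with median-of-ratios scaling. Whether replicate numbers pair libraries between groups could not be settled from their deviations. Of 19 same-numbered pairs 8 correlated over 0.1, from -0.46 to 0.60, with a median of 0.066 against -0.015 for different numbers. Of 20 libraries 4 correlated best with their own number. With the number as a block Agr2 (-0.72, adjusted p = 0.067) and Klk1 (-0.60, 0.0909) under treatment were not called, Zg16 in DM-aKG against WT was (-0.61, 0.0198), and no other product changed its call. Depth limits Retnlb, for which WT held an estimated 4 reads.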

Other observations

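Mucins and trefoil peptides that are typical of the stomach rather than of intestinal goblet cells appeared in control libraries. Muc6, a gel-forming mucin of gastric glands, was at 19.2 ± 10.2 RPKM in control (SD, n = 7), 2.91 ± 5.82 with DM-aKG (SD, n = 6) and 0.00224 ± 0.00382 in WT (SD, n = 7), where 5 libraries were listed at 0. It was lower with DM-aKG than in control (log2 difference -3.05, limma adjusted p = 8.52e-05), and treated libraries ran from 0.00813 to 14.7 RPKM. Muc6 passed the filter only through Apc Min libraries, with every control library at 6.64 RPKM or more. Muc4, a membrane-bound mucin, was at 3.09 ± 0.841 RPKM in WT, 10.4 ± 4.01 in control and 1.67 ± 1.32 with DM-aKG (limma adjusted p = 4.41e-06 for treatment). Tff1, a gastric trefoil peptide, did not pass the filter. It was listed at 0 in all 7 WT libraries, lay between 0.883 and 2.42 RPKM in the 7 control libraries and between 0 and 0.157 RPKM in the 6 DM-aKG libraries. Muc5ac, the mucin of the gastric surface, was listed at 0 in all 7 WT libraries and lay between 0.0735 and 0.582 RPKM in control and between 0 and 0.173 RPKM in DM-aKG libraries. Muc13, a membrane-bound mucin of the brush border, was at 745 ± 131 RPKM in WT, 508 ± 233 in control and 502 ± 67.1 with DM-aKG, and was not called for treatment (limma adjusted p = 0.769).

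Other members of the Clca family were also measured, of which Clca4a and Clca4b are made mostly by absorptive cells. Of 7 genes 5 passed the filter, and 4 of these were lower in control than in WT, against 15.7% of all genes tested. Their median difference was -0.86, against 0.20 over all genes tested. Clca4b was at 1013 ± 126 RPKM in WT, 607 ± 116 in control and 686 ± 223 in DM-aKG libraries. Clca4a was at 564 ± 113, 321 ± 115 and 211 ± 130.1 RPKM. None of the 5 was called for treatment by limma, and with quantile normalization 1 was higher. Among the relatives of Retnlb, Retnlg, expressed by myeloid cells, was at 0.0172 ± 0.0294 RPKM in WT, 1.33 ± 0.786 in control and 1.08 ± 0.641 in DM-aKG libraries.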
